A study of Mus musculus with 24 samples.

Results

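Wild-type CD4 T cells and wild-type macrophages are immune cells of different lines: one is a lymphocyte that answers a specific antigen by dividing, the other a phagocyte that engulfs and digests. Their messenger RNA was compared here in 6 libraries of the 24 in the series, 3 from each cell type, chosen by their labels alone and with every expressed gene included. The mice were C57BL/6J wild type. CD4 T cells were taken from lymph node and spleen, gated as CD4+CD25-CD44- and then stimulated on Dynabeads against CD3 and CD28, which stand in for antigen and costimulation. Macrophages were drawn into the peritoneal cavity by thioglycollate, harvested, and treated with 100 ng/ml LPS, a bacterial cell-wall component sensed through TLR4, so they were not untreated cells. The culture medium of both was RPMI with serum (10% FBS). The length of either stimulation is not given in the sources used here. By the series' design text, the 3 replicates of each group are sequencing replicates. Separate animals are not mentioned, so p-values below measure only the spread between libraries, which may be technical. The other groups of the series were B cells, dendritic cells and miR-155 knockout counterparts of all 4 cell types. The knockout T cells and macrophages, from mice without the microRNA miR-155, are used as a second reading of the same contrast.

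As background, a CD4 T cell recognises peptide on MHC class II through its T cell receptor. The signal passes from the CD3 chains through the kinases Lck and Zap70, and leads to growth, DNA synthesis and division. A macrophage descends from the myeloid line under the transcription factor PU.1 (Spi1) and the growth factor receptor Csf1r. It takes up particles through scavenger, Fc and complement receptors, degrades them in lysosomes, and answers bacterial products through Toll-like receptors with cytokines and chemokines.

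The defining markers of each cell type were high under its own label and near 0 under the other. The 8 CD4 T cell markers summed to between 2175 and 2249 CPM (gene counts divided by the library's total count in units of 1e6, scaled between libraries) in the T cells and to between 1.28 and 2.90 CPM in the macrophages. The 8 macrophage markers summed to between 2.62 and 3.62 CPM in the T cells and to between 21661 and 26797 CPM in the macrophages. Both sums separated the groups completely, with an exact two-sided permutation p of 0.1, the smallest that 3 against 3 libraries allow. CD8 T cell markers reached at most 5.24 CPM in the T cells. In the macrophages, the 5 fibroblast markers summed to 256, 157 and 388 CPM in replicates 1 to 3, with Col1a1 and Col1a2 the main contributors, against at most 0.338 CPM in the T cells. The 10 neutrophil markers summed to between 44.8 and 68.3 CPM there, nearly all from S100a8, while 4 of the 10, Ly6g and Cxcr2 among them, were at 0. The 7 B cell markers summed to between 48.4 and 159 CPM in the macrophages, mostly from Cd22, and to between 20.5 and 36.7 CPM in the T cells. The 4 plasmacytoid dendritic cell markers summed to between 281.5 and 440.9 CPM in the macrophages and between 62.5 and 121 CPM in the T cells. Most of this came from Bst2, which is also in the interferon-response list, and Siglech gave 1 count in the macrophages. The part of fibroblasts, neutrophils, B cells or plasmacytoid dendritic cells in the results was not tested.

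The macrophage libraries were less alike than the T cell libraries. Among genes with a mean of at least 100 CPM, 258 of 2189 (11.8%) differed by more than 2-fold between the highest and the lowest macrophage library, against 4 of 1931 (0.207%) in the T cells. Replicate 2 had the most lysosomal, lipid-handling and C1q transcripts and the fewest inflammatory ones, and replicate 3 the reverse. Lyz2, the macrophage lysozyme, gave 21937, 24886 and 14189 CPM in macrophage replicates 1 to 3, while Il1b gave 2178, 941 and 3909.7 CPM. Fibroblast markers moved with the inflammatory side, lowest in replicate 2 and highest in replicate 3. Each macrophage gene below is therefore given by library where a result turns on it, and counts were recomputed without each library in turn.

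**Figure D1:**
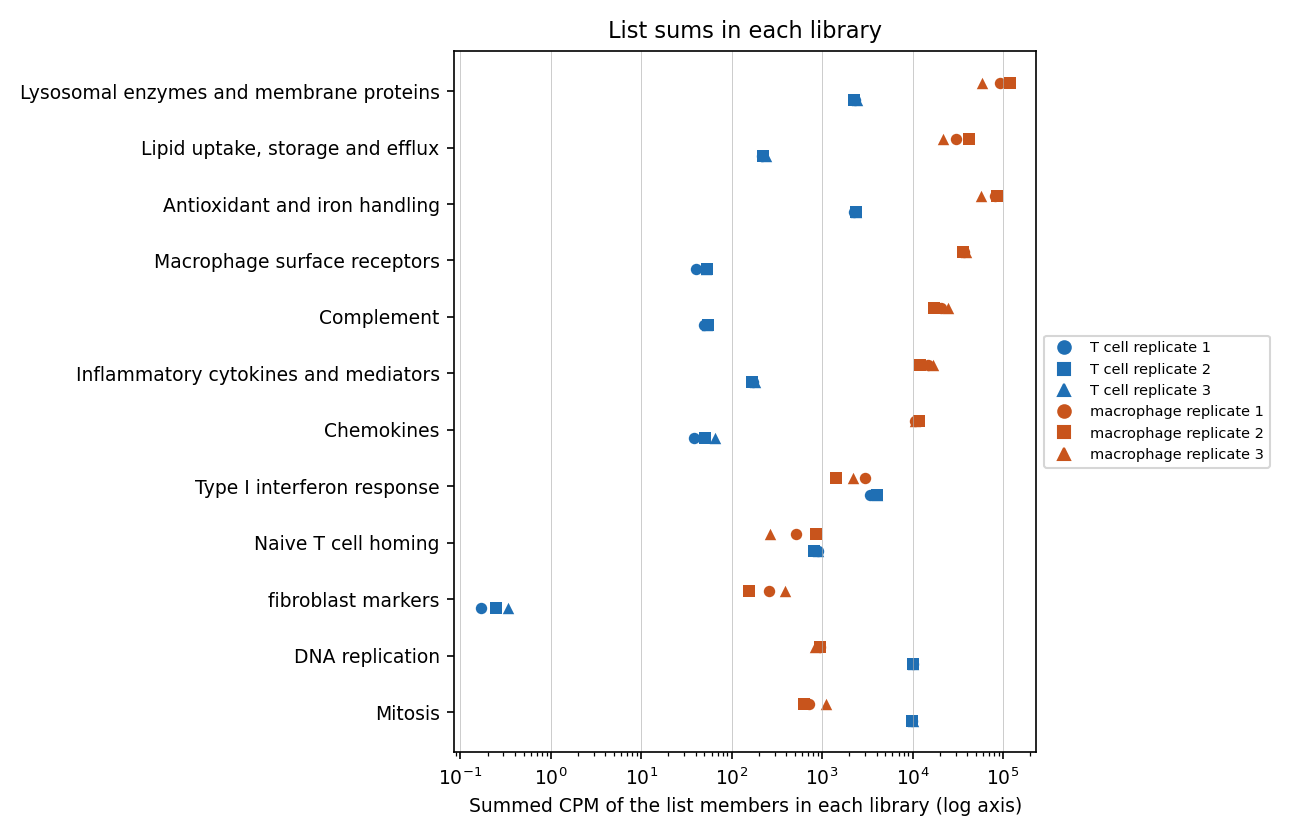
Summed CPM of the members of 12 gene lists in each of the 6 libraries (log axis, blue T cells, orange macrophages, symbols for replicates 1 to 3). Macrophage replicate 2 held 119205 CPM of lysosomal transcripts and replicate 3 held 59204 CPM, while the 3 T cell libraries held between 2236 and 2416 CPM.

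Of 11305 genes tested, 9125 (80.7%) differed between the cell types at an adjusted p below 0.05 in edgeR's quasi-likelihood test. These were 4417 genes higher in T cells (39.1%) and 4708 higher in macrophages (41.6%). A stricter test asked whether a difference exceeded 2-fold (edgeR glmTreat, adjusted p below 0.05). It was passed by 5354 genes (47.4%), with 2397 higher in T cells (21.2%) and 2957 higher in macrophages (26.2%), and such genes are called past 2-fold below. With each library left out in turn, between 5100 and 5719 genes were past 2-fold. At 9469 genes (83.8%) the libraries of the groups did not overlap. The scaling of the libraries mattered: using library totals alone shifted the median log2 difference by 0.67 towards T cells and turned the split of past 2-fold genes to 3939 against 2202. Differences are therefore relative to the bulk of genes. Of the genes named below as higher in macrophages, Impdh1 and Rac1 were called as higher in T cells with library totals. Bcl10 changed sign there but was not called (log2 0.11, adjusted p = 0.32). Zbtb7b, Pttg1, E2f1, Rb1, Rbl2, Myd88, Hk2, Rac2, Tfeb and Cmpk2 were no longer called. Cell number and RNA per cell cannot be told apart in such bulk libraries.

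**Figure D2:**
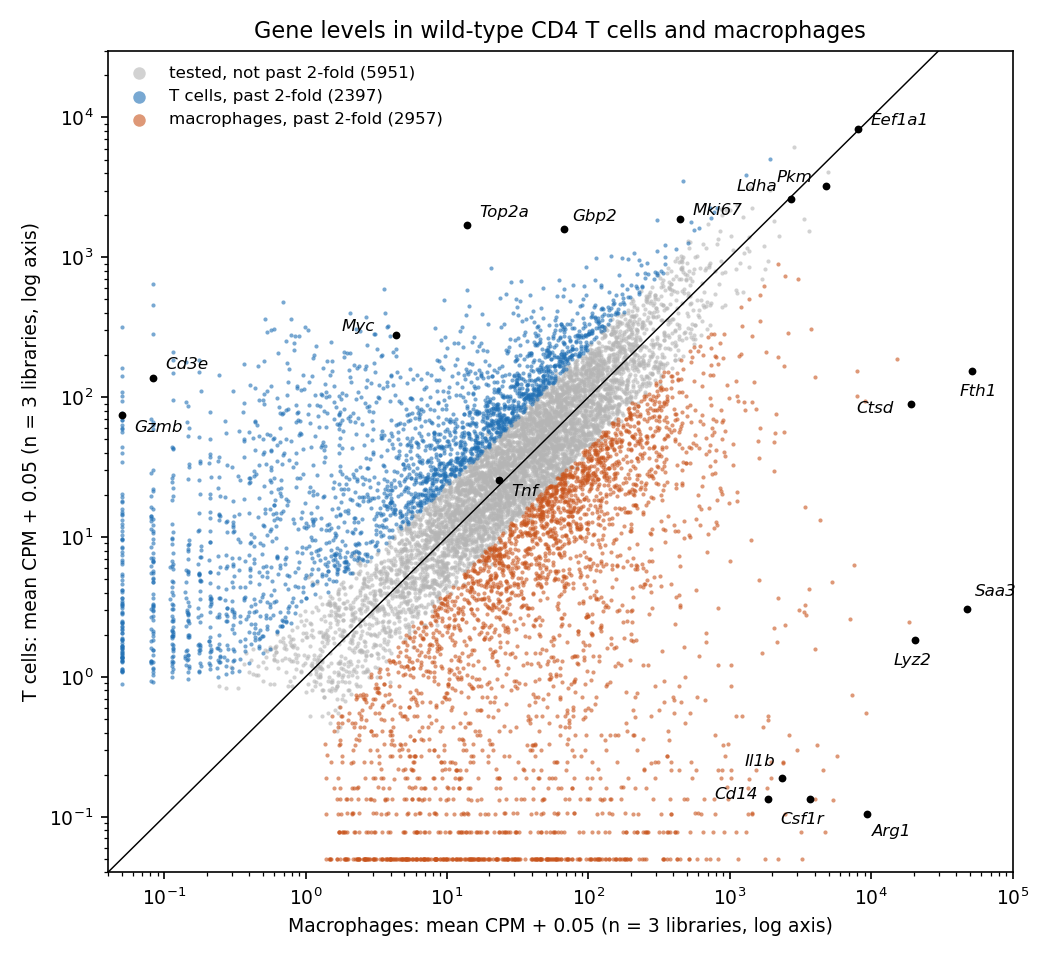
Mean CPM in the 3 T cell libraries against mean CPM in the 3 macrophage libraries for the 11305 tested genes (log axes, 0.05 CPM added, diagonal line of equal level). The 2397 genes past 2-fold in T cells are blue and the 2957 in macrophages orange; columns and rows of points at the edges are genes with no or few counts in one cell type.

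The genes with the largest differences among well-expressed genes were cell-type genes at each end. In T cells they included Cd5, a receptor that tunes T cell receptor signals, which gave 637, 675 and 624 CPM against a single count in the macrophages. The genes Prkcq, Izumo1r, Cd6, Nrn1, Bcl11b, Lef1, Cd27, Gzmb, Zap70 and Ubash3a were also among the 12. In macrophages, Mmp8, a collagenase, gave 3928, 3112 and 2642 CPM and was at 0 in every T cell library, at least 38552-fold higher when set against 3 counts over the group. Arg1, which hydrolyses arginine, gave 9953, 9489.7 and 8799 CPM against 2 counts over the T cell group. Ccl6, Mmp9, Serpinb2, C1qc, Tgfbi, Cxcl3, F10, Dab2, Pf4 and Clec4n were the others. Mmp9, a gelatinase, was uneven, with 1300.3, 501 and 3501 CPM in the macrophage libraries and 0 in all T cell libraries.

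The commonest transcripts differed in kind. In T cells the 10 genes with the most counts were housekeeping genes of translation, folding, the cytoskeleton and glycolysis: Eef1a1, Eef2, Hsp90ab1, Actb, Rpl4, Ncl, Pkm, Rplp0, Hspa8 and Ldha. The 10 top genes of a library took 5.37 to 5.51% of its gene counts in T cells and 15.7 to 17.9% in macrophages. The macrophage list was led by Fth1, the heavy chain of the iron store ferritin, with 59079.6, 54850 and 42057 CPM, and Saa3, an acute-phase protein, with 49912, 39123 and 53502 CPM. On the scale of CPM per kilobase of coding sequence, the level of Saa3 was 103739 and that of Fth1 91703. The elongation factor Eef1a1 stood at 5800.5 on that scale in the same cells. T cells held 164, 144 and 153 CPM of Fth1 and 1.51, 3.62 and 3.97 CPM of Saa3. Lyz2, Ctsd, Thbs1, Psap, Arg1, Itgam and Ctss followed in macrophages, and Eef1a1 was the single gene on both lists. Eef1a1 was not called, with 8952, 7978 and 7854 CPM in T cells and 7909, 10299.9 and 5909 CPM in macrophages (log2 difference 0.04 ± 0.26 (SE), adjusted p = 0.892).

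**Figure D3:**
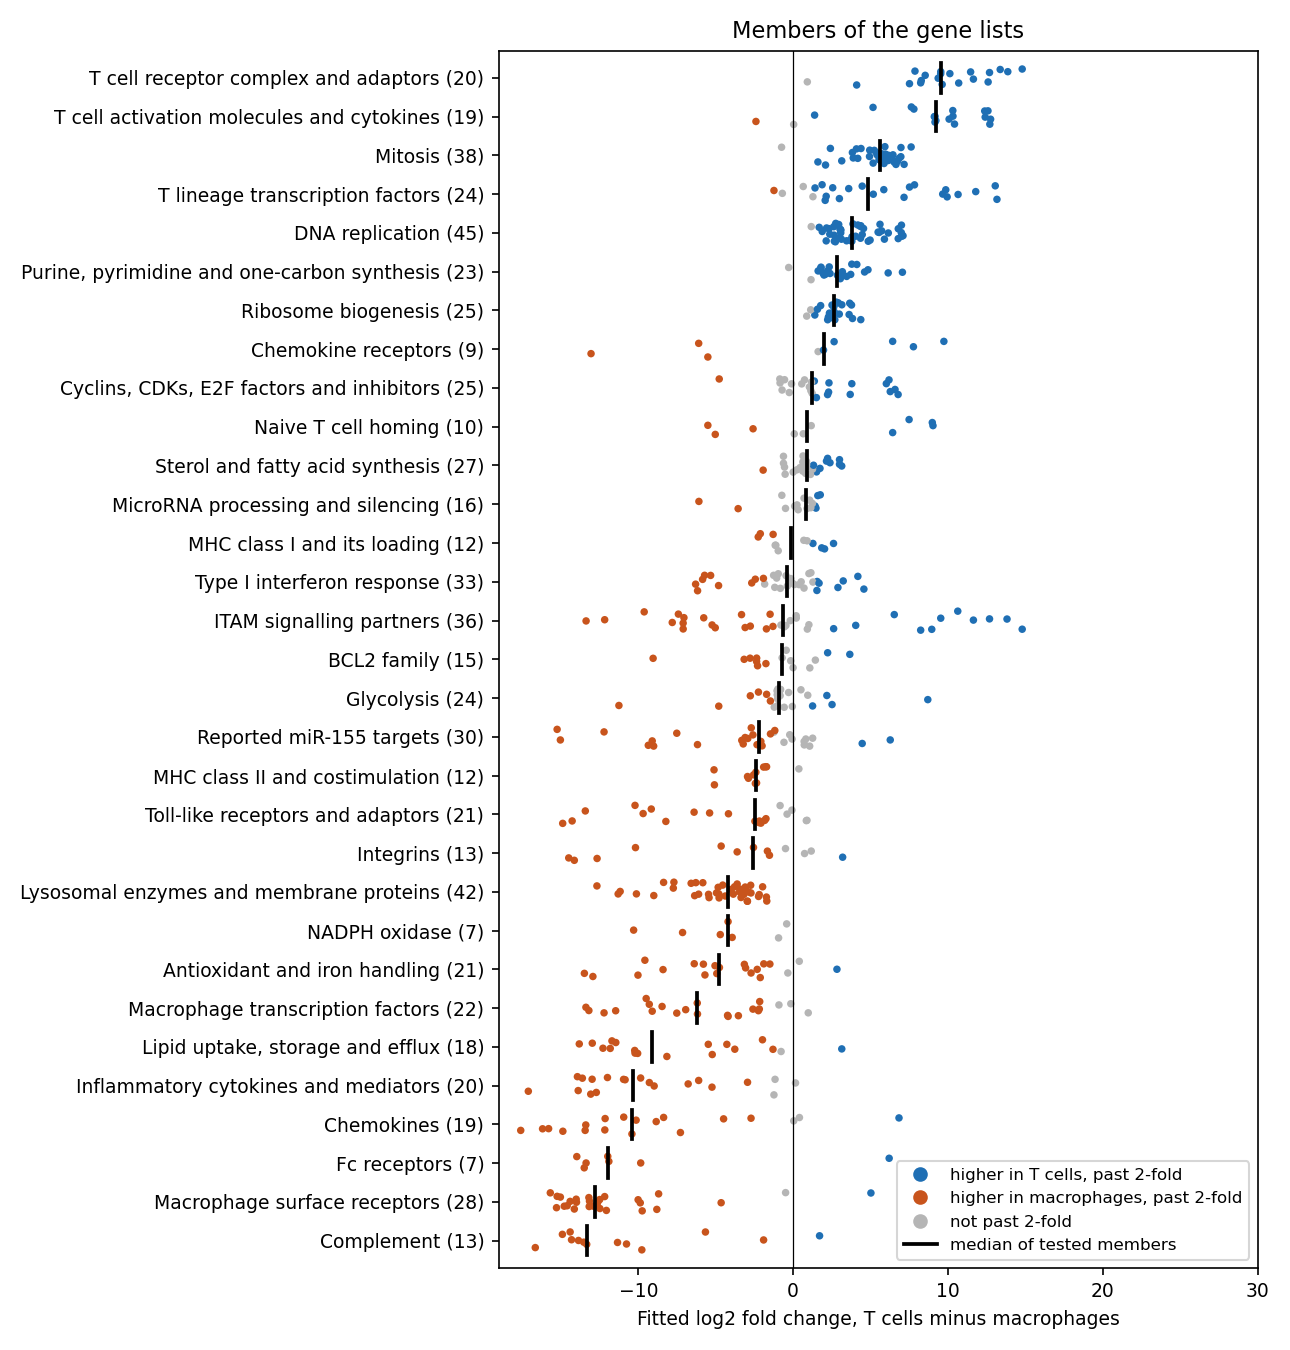
Fitted log2 differences, T cells minus macrophages, of the tested members of 31 gene lists (number tested in brackets), coloured by whether they were past 2-fold, with the median as a black bar. Values of genes with no or few counts in one cell type depend on the fit's prior count. The lists range from a median of 9.58 for the T cell receptor genes to -13.33 for complement.

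The T cell receptor and its close adaptors were almost absent from macrophages. All 20 tested members were higher in T cells and 19 were past 2-fold, against 21.2% of all tested genes, with a median log2 difference of 9.58 beside -0.05 over all genes. The chains of CD3, which carry the signal of the receptor into the cell, included Cd3d with 208, 215 and 213 CPM in T cells and 2 counts in the macrophages, and Cd3g with 174, 182 and 178 CPM against 3 counts. Cd4, the coreceptor for MHC class II, gave 354, 368 and 364 CPM in T cells and 0.399, 0.998 and 0 CPM in macrophages. Cd28, the costimulatory receptor engaged by the beads, gave 88.3, 90.8 and 89.5 CPM in T cells and 0.0997, 1.09 and 0.198 in macrophages. The one member short of 2-fold was Lcp2 (SLP-76), an adaptor used by both T cell and Fc receptors, with 599.5, 639.9 and 614 CPM in T cells and 303, 210.2 and 469 CPM in macrophages. It was 1.91-fold higher in T cells (log2 0.92 ± 0.27 (SE), adjusted p = 0.0162), and was not called without macrophage replicate 1 (adjusted p = 0.06).

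Signalling downstream of antigen receptors and of Fc receptors uses the same kinds of molecule: chains with ITAM motifs, a Src-family kinase, a Syk-family kinase, a Tec-family kinase, adaptors, phospholipase C gamma, protein kinase C and a CARD scaffold. Of 36 genes of this chain tested, 11 were past 2-fold in T cells and 17 in macrophages, against 21.2% and 26.2% of all genes. The ITAM chains were Cd3e in T cells (136, 137 and 141 CPM, 1 count in macrophages) and Tyrobp and Fcer1g in macrophages. Tyrobp gave 835, 1095 and 537 CPM in macrophages and at most 0.329 CPM in a T cell library.

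At the Src-family step, T cells had Lck at 465, 479 and 505 CPM against 0.897, 0.635 and 0.395 CPM in macrophages, and Fyn at 16.4-fold the macrophage level. Macrophages had Lyn and Fgr at 225-fold and 134-fold the T cell level. The groups did not overlap at any of these, nor did they at 83.8% of all tested genes. At the next step, Zap70 gave 305, 287 and 262 CPM in T cells and 1 count in macrophages. Its relative Syk gave 419, 383 and 524 CPM in macrophages and 2.10, 2.22 and 5.32 CPM in T cells, a log2 difference of -7.10 ± 0.38 (SE) (adjusted p = 2.00e-06). Among Tec kinases, Txk was at 0 in every macrophage library, while Btk was 6.80-fold and Tec 8.65-fold higher in macrophages.

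The adaptors and enzymes further down divided the same way. Lat, the scaffold of the T cell receptor, gave 290.3, 300.3 and 316 CPM in T cells and 1.296, 1.36 and 0.296 CPM in macrophages, and its relative Lat2 gave 0.421, 0.575 and 0.675 and 73.7, 104 and 56.9 CPM. The adaptor Grap2 gave 56.2, 49.6 and 53.6 CPM in T cells and 3 counts in macrophages, and its relative Grb2, used by most cells, was 3.33-fold higher in macrophages. The adaptor Blnk and the exchange factors Vav1 and Rasgrp4 were also past 2-fold in macrophages. Plcg1 was 6.14-fold higher in T cells (log2 2.62 ± 0.11 (SE)) and Plcg2 37.6-fold higher in macrophages (log2 -5.23 ± 0.30 (SE)). Prkcq gave 168, 167 and 146 CPM in T cells and 0 in macrophages, whereas Prkcd was 10.0-fold higher in macrophages. Card9, a scaffold that leads to NF-kB, was 175-fold higher in macrophages. Its partner Malt1 was not called, at 225, 234 and 261 CPM in T cells and 168, 119.7 and 338 CPM in macrophages (adjusted p = 0.61; 0.0023 and higher in T cells without macrophage replicate 3), and Vav3 was not called either (adjusted p = 0.114). Bcl10, the third partner of that complex, was 1.48-fold higher in macrophages (log2 -0.56 ± 0.10 (SE), adjusted p = 9.48e-04). With library totals its sign changed and it was not called (log2 0.11).

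**Figure D4:**
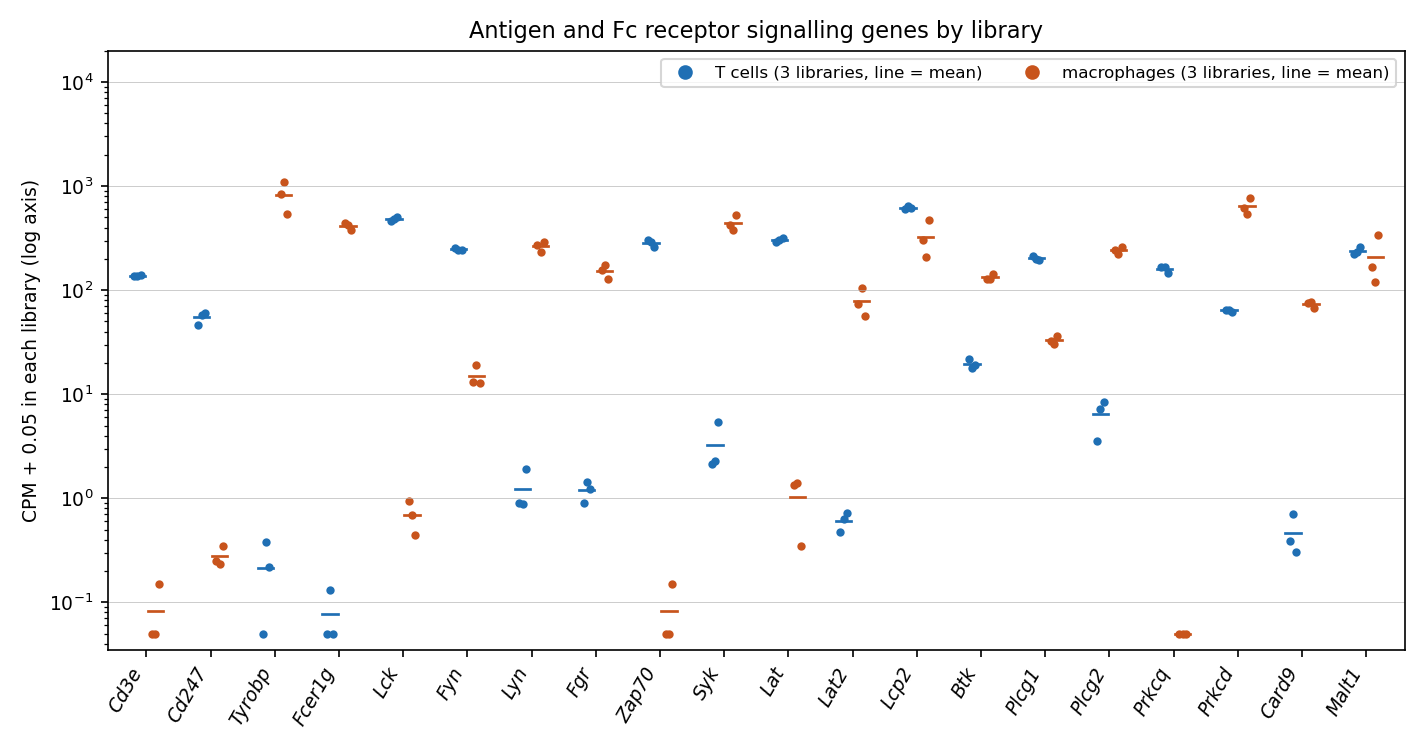
CPM of 20 antigen and Fc receptor signalling genes in each library (log axis, 0.05 CPM added, line at the mean; points at 0.05 are zeros). Several neighbouring genes are relatives at the same step: Zap70 stood at 262 to 305 CPM in T cells and at or under 0.0988 CPM in macrophages, and Syk the other way round, while Malt1 overlapped.

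Transcription factors separated the lineages on both sides. Of 24 tested T lineage factors, 20 were past 2-fold in T cells, against 21.2% of all genes. Tcf7, a factor of early and naive T cells, gave 94.5, 89.8 and 76.2 CPM in T cells and 3 counts in macrophages, and its relative Lef1 gave 101, 96.9 and 86.0 CPM and no count. Bcl11b, which holds cells in the T lineage, Tox and Gata3 were also at 0 in every macrophage library. Irf4, induced by T cell receptor signals, gave 334, 400.1 and 389.9 CPM in T cells and 1.496, 1.73 and 4.64 CPM in macrophages. Tbx21, the factor of the Th1 fate, was uneven among the T cell libraries, at 36.9, 79.1 and 92.6 CPM. Foxp3, the factor of regulatory T cells, stayed at 1.77, 1.15 and 0.929 CPM in T cells. Against the list's direction, Batf, a partner of Irf4, was 2.37-fold higher in macrophages (17.6, 20.4 and 17.8 against 6.82, 8.38 and 8.44 CPM, adjusted p = 1.13e-04). Its place past 2-fold was lost without T cell replicate 1 or 2 or macrophage replicate 1 or 2, with the direction kept. It was also lost with upper-quartile factors, library totals, no filter, DESeq2 or the replicate number as a block. Zbtb7b, which directs CD4 lineage choice in the thymus, was 1.62-fold higher in macrophages (log2 -0.70 ± 0.11 (SE)).

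Among 22 macrophage factors, 19 were past 2-fold in macrophages and none in T cells, against 26.2% and 21.2% of all genes. Spi1 gave 352, 358 and 317 CPM in macrophages and 0.337, 0.493 and 1.01 CPM in T cells. Cebpb, a factor of myeloid cells and inflammation, was 72.4-fold higher in macrophages (log2 -6.18 ± 0.13 (SE)). Cebpa and Bhlhe41 were at 0 in T cells and uneven in macrophages, with Cebpa at 116, 185 and 55.3 CPM. Gata6, the factor of resident large peritoneal macrophages, was low, at 3.39, 4.45 and 3.95 CPM, and Timd4, a receptor of the same cells, reached at most 1.10 CPM. Irf8, a factor named for myeloid and B cells, was the one member higher in T cells, at 185, 293 and 376 CPM against 147, 156 and 132 CPM (adjusted p = 0.0073), with spread among the T cell libraries. Bhlhe40 was not called, at 91.6, 122 and 158 CPM in T cells and 128, 158 and 126 CPM in macrophages.

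Molecules that T cells make on activation were past 2-fold in T cells for 17 of 19 tested members, against 21.2% of all genes. The IL-2 receptor chains Il2ra and Il2rb gave 318, 299.8 and 283 CPM and 279.6, 313 and 334 CPM in T cells and at most 1.28 and 1.19 CPM in a macrophage library. The common gamma chain Il2rg, which serves many cytokine receptors, was not called, at 433, 455 and 420.1 CPM in T cells and 430.1, 318 and 529.5 CPM in macrophages (log2 0.03 ± 0.19 (SE)). The costimulatory receptor Tnfrsf4 (OX40) gave 276, 299.6 and 304 CPM in T cells and Tnfrsf18 (GITR) 146, 139.8 and 166 CPM, both under 1 CPM in macrophages. The inhibitory receptors Ctla4, Pdcd1 and Lag3 were past 2-fold in T cells as well, Pdcd1 with no count in macrophages.

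Cytokine transcripts of effector T cells were mostly low. Il2, the growth factor of T cells, gave 12.03, 16.3 and 14.3 CPM, and Lta, lymphotoxin alpha, 37.9, 43.0 and 48.6 CPM. Ifng was at 0.673, 1.15 and 6.92 CPM, Il4 at or under 0.411 CPM, and Il5 and Il13 were listed at 0 in all 6 libraries. Gzmb, a cytotoxic protease, gave 42.5, 56.5 and 124 CPM, highest in replicate 3, as Ifng was. Cd44, an adhesion receptor that marks T cells after activation and whose absence was part of the gate, was 5.29-fold higher in macrophages, at 301, 294 and 259 CPM against 42.3, 51.9 and 67.5 CPM in T cells.

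Of 10 genes of naive T cell homing, 4 were past 2-fold in T cells and 3 in macrophages, against 21.2% and 26.2% of all genes. Ccr7, which brings naive cells into lymph nodes, gave 325, 292 and 351 CPM in T cells and at most 5.73 CPM in a macrophage library. S1pr1, the receptor that guides exit from lymph nodes, was 32.9-fold higher in macrophages at 132, 139 and 78.7 CPM, with 5.05, 3.70 and 1.94 CPM in T cells. Il7r, the receptor for the survival factor IL-7, was 6.15-fold higher in macrophages, and its macrophage values, 43.3, 88.3 and 23.5 CPM, were uneven. Cxcr4 was more so, at 201, 520 and 51.1 CPM in macrophages and 6.06, 6.74 and 4.14 CPM in T cells (log2 -5.51 ± 0.86 (SE), adjusted p = 6.24e-04). Klf2, the factor that drives S1pr1, was low in both, at 22.1, 16.9 and 12.2 and 9.18, 5.72 and 17.8 CPM, and not called (adjusted p = 0.172). It was called as higher in T cells without macrophage replicate 3 (adjusted p = 0.01), with library totals (0.021) and with all 24 libraries (0.023).

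Of 18 listed chemokine receptors, 9 had enough counts to be tested. Of these 9, 5 were past 2-fold in T cells and 3 in macrophages, against 21.2% and 26.2% of all genes. Those in T cells were Ccr4, Ccr6, Ccr7, Ccr8 and Cxcr6, and those in macrophages included Ccr1 and Cxcr4. The macrophage count was 6 with no filter and 5 with all 24 libraries in the fit, with 5 in T cells in both. The summed level of the list was 387 ± 28.5 CPM in T cells and 1033 ± 283 CPM in macrophages (SD, n = 3). Ccr1 gave 615, 596 and 489 CPM in macrophages and 2 counts in T cells. Ccr2, the receptor of inflammatory monocytes, reached at most 2.47 CPM in a macrophage library, and Cx3cr1 at most 0.698 CPM.

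Genes of DNA replication and mitosis separated the dividing T cells from the macrophages almost without exception. All 45 tested DNA replication genes were higher in T cells and 44 were past 2-fold, against 21.2% of all genes, with a median log2 difference of 3.80. Their summed level was 10175 ± 57.4 CPM in T cells and 913 ± 59.1 CPM in macrophages (SD, n = 3). All 6 subunits of the MCM helicase, which unwinds DNA at origins, were past 2-fold. Mcm5 gave 475, 522 and 490.5 CPM in T cells and 11.0, 6.72 and 10.7 CPM in macrophages, and Mcm6 679.8, 671 and 652 and 31.7, 30.9 and 23.1 CPM. The loader Cdc6 and the initiation factor Mcm10 were 129-fold and 129.5-fold higher. Rrm2, the regulated subunit of the enzyme that makes deoxynucleotides, gave 288, 289 and 320.1 CPM in T cells and 3.89, 1.54 and 1.68 CPM in macrophages, and its partner Rrm1 was 20.3-fold higher (log2 4.34 ± 0.12 (SE)). Pole, the leading-strand polymerase, was 138-fold higher. The sliding clamp Pcna, which also serves repair, was closer, at 609, 605 and 631 CPM in T cells and 131, 149.6 and 91.0 CPM in macrophages. Gins4 was the member short of 2-fold by the test (log2 1.17 ± 0.18 (SE)).

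Of 38 mitosis genes, 37 were past 2-fold in T cells, against 21.2% of all genes, with a median log2 difference of 5.61. Top2a, which untangles chromosomes, gave 1625, 1729.8 and 1757 CPM in T cells and 13.2, 11.2 and 16.8 CPM in macrophages, a log2 difference of 6.96 ± 0.22 (SE) (adjusted p = 2.27e-07). The spindle motor Kif11 gave 406, 394 and 400.1 CPM and 1.995, 1.73 and 2.37 CPM, and Cdc20, an activator of the anaphase-promoting complex, was 126-fold higher in T cells. Cdk1 and its cyclins Ccnb1 and Ccna2 were 63.2-fold, 55.0-fold and 116-fold higher. Foxm1, a transcription factor of mitotic genes, gave 88.5, 81.5 and 85.1 CPM in T cells and at most 2.37 CPM in a macrophage library.

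Mki67, the most used marker of proliferation, was among the members with the smaller differences. It gave 1890.5, 1871 and 1892 CPM in T cells and 346, 287 and 694 CPM in macrophages. The difference in Mki67 was log2 2.09 ± 0.34 (SE) (adjusted p = 7.25e-04), below the list's median of 5.61, and the highest macrophage value was in replicate 3. Incenp, a subunit of the chromosomal passenger complex, differed by less, log2 1.60 ± 0.13 (SE), at 71.5, 68.8 and 88.6 CPM in macrophages. Of the summed mitosis level in macrophages, 718, 637 and 1098 CPM in replicates 1 to 3, Mki67 contributed the most counts. Pttg1 (securin), which holds separase inactive until anaphase, was the one member higher in macrophages, at 34.5, 33.0 and 22.4 CPM against 16.3, 16.2 and 21.0 CPM (log2 -0.75 ± 0.20 (SE), adjusted p = 0.00902), and no longer called with library totals (log2 -0.07). Its partner Espl1, separase, was 5.31-fold higher in T cells (log2 2.40 ± 0.11 (SE)).

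Set beside the other wild-type cells of the series, scaled over all 24 libraries, the replication sum was 10742 ± 75.0 CPM in T cells, 10414 ± 180 in B cells, 1786 ± 59.9 in dendritic cells and 946 ± 63.1 in macrophages (SD, n = 3). The mitosis sum was 10582 ± 89.9, 10049 ± 64.6, 632 ± 28.6 and 847 ± 253 CPM in the same order.

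Regulators of the cycle were more mixed, with 12 of 25 tested genes past 2-fold in T cells and 1 in macrophages, against 21.2% and 26.2% of all genes. Ccnd2, a D-type cyclin that answers growth signals, gave 271, 305 and 280.2 CPM in T cells and 1.70, 1.18 and 6.12 CPM in macrophages. Ccnd3 was 1.67-fold higher in T cells, at 117, 127 and 154 and 83.7, 67.5 and 87.7 CPM (adjusted p = 0.00246). Ccnd1 was at 0 in T cells and at most 0.593 CPM in macrophages. The E-type cyclins Ccne1 and Ccne2 were 12.9-fold and 74.1-fold higher in T cells. E2F factors switch replication genes on or off, depending on the member. Of these, E2f2 gave 45.7, 46.1 and 44.5 CPM against 0.399, 0.545 and 0.790 CPM, and E2f7 and E2f8 were past 2-fold in T cells too. E2f1 went the other way, at 43.3, 40.6 and 41.9 CPM in T cells and 78.4, 70.8 and 77.0 CPM in macrophages (log2 -0.85 ± 0.09 (SE), adjusted p = 8.64e-05). The brake Rb1 and its relative Rbl2 were 1.64-fold and 1.81-fold higher in macrophages, while Rbl1 was 4.91-fold higher in T cells. The inhibitors Cdkn1a (p21) and Cdkn1b (p27) were not called, with Cdkn1a at 23.1, 26.6 and 37.4 and 30.02, 42.9 and 30.6 CPM. Cdkn2a (p16 and p19) was past 2-fold in macrophages from a low level, 3.89, 6.72 and 3.95 CPM against 0.168, 0.164 and 0.169 CPM. Myc, a transcription factor of growth in activated lymphocytes, gave 275, 279.9 and 285 CPM in T cells and 4.59, 3.45 and 4.94 CPM in macrophages (log2 6.02 ± 0.16 (SE)).

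**Figure D5:**
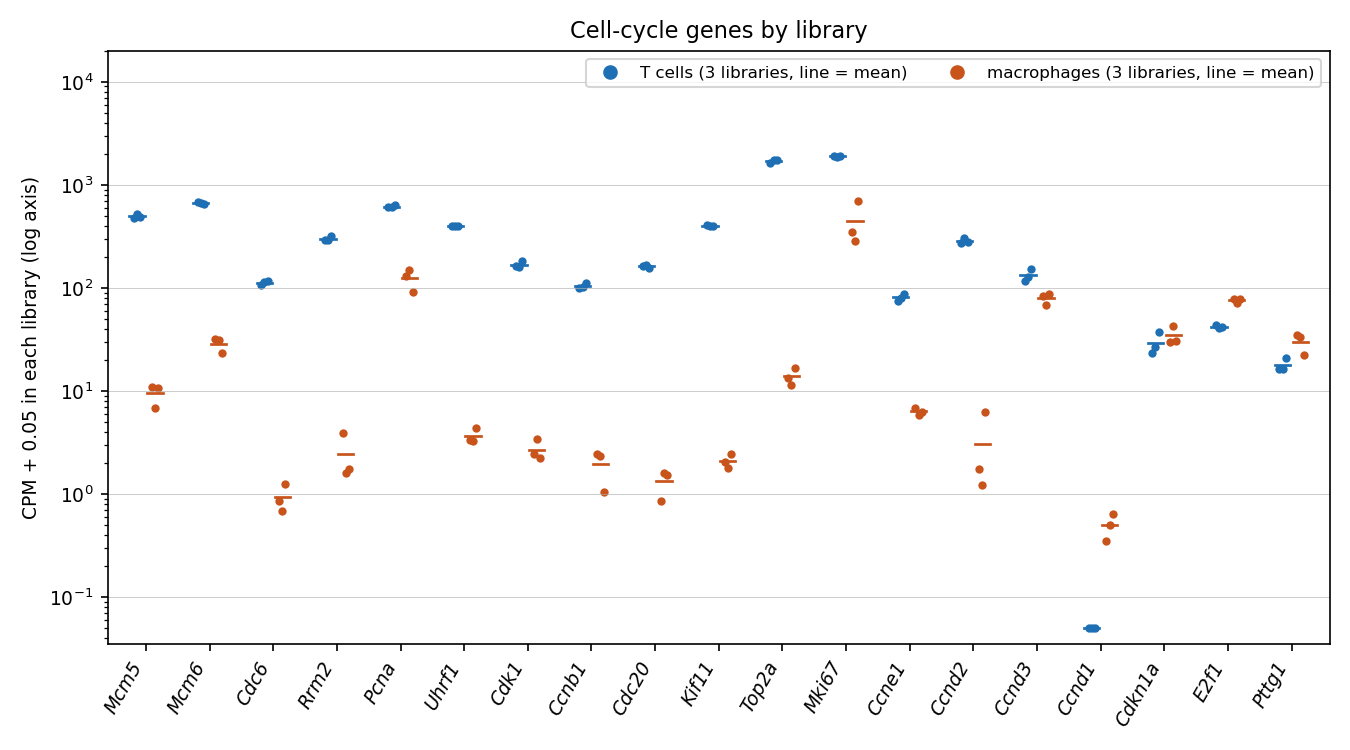
CPM of 19 cell-cycle genes in each library (log axis, 0.05 CPM added, line at the mean). From Mcm5 to Top2a every T cell library lies above every macrophage library, Mki67 is well detected in both, Cdkn1a overlaps, and E2f1 and Pttg1 are higher in macrophages under the main scaling.

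Promoters of these genes were searched for short motifs. In the 250 bases before the transcription start, taken from RefSeq (mouse build GRCm38.p6) for genes with a single start, the CHR element (TTTGAA, both strands), known for G2 and M phase genes, occurred in 10 of 29 mitosis genes (34.5%) against 10.4% of tested genes and 16.7% of all 22862 promoter windows. The CCAAT box, letters CCAAT on either strand, occurred in 75.9% of mitosis genes and 64.5% of replication genes against 37.2% of tested genes and 34.7% of all windows. E2F sites, searched as TTTCGCGC, TTTCCCGC or TTTGGCGC on both strands, occurred in 7 of 31 replication genes (22.6%) against 3.41% of tested genes and 1.59% of all windows. Over all genes past 2-fold, a PU.1 site (GAGGAAGT, both strands) occurred in 3.75% of those higher in macrophages, 2.38% of those higher in T cells and 2.45% of all windows. A RUNX site (TGTGGTTT, both strands) occurred in 1.27%, 0.859% and 1.62%. No motif contains another. A match describes letters and not binding, and no test was made of these shares. The first set shows an E2F match, in capitals, in 3 replication genes past 2-fold in T cells, and the second a CHR match in 4 mitosis genes described above. Each stretch is 30 bases read along the gene's strand.
Mcm5 (chr8:75109349-75109378, plus strand): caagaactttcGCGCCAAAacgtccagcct
Mcm6 (chr1:128359793-128359822, minus strand): gtatgcttttgGCGCGAAAagtgcgtgcgg
Cdc6 (chr11:98908002-98908031, plus strand): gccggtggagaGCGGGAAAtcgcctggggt
Cdc20 (chr4:118437344-118437373, minus strand): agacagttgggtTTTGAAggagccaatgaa
Cdk1 (chr10:69352966-69352995, minus strand): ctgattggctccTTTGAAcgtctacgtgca
Kif11 (chr19:37376351-37376380, plus strand): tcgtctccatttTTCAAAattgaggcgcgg
Top2a (chr11:99024195-99024224, minus strand): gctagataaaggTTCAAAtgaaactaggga
The matches begin 149, 106 and 138 bases before the start in Mcm5, Mcm6 and Cdc6. They begin 18, 71, 19 and 23 bases before it in Cdc20, Cdk1, Kif11 and Top2a.

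Genes of cell growth were also higher in T cells. All 25 ribosome biogenesis genes were higher in T cells and 23 were past 2-fold, against 21.2% of all genes. Their median log2 difference was 2.62. Ncl (nucleolin) gave 3403, 3651 and 3466 CPM in T cells and 447, 531 and 416 CPM in macrophages, and Npm1, another nucleolar protein, 1764, 1916 and 1886 and 295, 396 and 224 CPM. Dkc1, which modifies ribosomal RNA, was 20.7-fold higher, and Polr1a, the large subunit of RNA polymerase I, 5.74-fold. Nucleotide and one-carbon synthesis gave 21 of 23 past 2-fold in T cells, against the same 21.2%, with a median of 2.86. Shmt1 and Shmt2, which draw one-carbon units from serine, were 135-fold and 17.3-fold higher. Phgdh and Psat1, the first steps of serine synthesis, gave 225, 212 and 224 CPM and 245, 252 and 278 CPM in T cells and at most 4.39 and 11.7 CPM in a macrophage library. Cad, which starts pyrimidine synthesis, was 13.9-fold higher, and Ctps, which makes CTP, 24.6-fold. The IMP dehydrogenases parted: Impdh2 was 7.23-fold higher in T cells, whereas Impdh1 was 1.22-fold higher in macrophages (log2 -0.29 ± 0.09 (SE), adjusted p = 0.0233). That last call was lost in several other fits and its direction turned with library totals (log2 0.38).

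Lipid synthesis differed less. Of 27 sterol and fatty acid synthesis genes, 9 were past 2-fold in T cells and 1 in macrophages, against 21.2% and 26.2% of all genes, with a median of 0.86, and library totals raised the first count to 19. Fasn, fatty acid synthase, gave 995, 1039 and 946 CPM in T cells and 93.0, 106 and 139.9 CPM in macrophages (log2 3.14 ± 0.19 (SE)). Cyp51, an enzyme of sterol synthesis, was 4.64-fold higher in T cells. Insig1, a sterol sensor, was not called (adjusted p = 0.989), nor was Acly, which supplies acetyl-CoA (adjusted p = 0.106). Acly was called as higher in T cells without macrophage replicate 3 (adjusted p = 0.022), with upper-quartile factors (0.014) or library totals (0.00027), by DESeq2 (0.027) and with all 24 libraries (0.009). Hmgcs1, and Eno1 in the glycolysis list, were listed at 0 in all 6 libraries and give no value.

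Of 24 tested glycolysis genes, 6 were called higher in T cells and 16 in macrophages, against 39.1% and 41.6% of all genes. Past 2-fold were 4 in T cells and 6 in macrophages, near the shares of all genes (21.2% and 26.2%), and the median log2 difference was -0.91, or -0.24 when library totals alone were used. The glucose transporter Slc2a3 gave 76.0, 115 and 142 CPM in T cells and under 0.3 CPM in every macrophage library, while Slc2a6 gave 104, 106 and 129 CPM in macrophages and 3.62, 3.62 and 4.90 CPM in T cells. The general transporter Slc2a1 was 2.05-fold higher in macrophages (log2 -1.04 ± 0.12 (SE)). Hexokinase 3 (Hk3) was a macrophage transcript, at 431, 422 and 449 CPM against at most 0.247 CPM, while Hk1 was 1.43-fold higher in T cells and Hk2 1.78-fold higher in macrophages. The call of Hk1 was lost in 5 of the 6 fits that left out a library, all but the one without macrophage replicate 3 (adjusted p from 0.063 to 0.12). Of the phosphofructokinases, Pfkp was 4.54-fold higher in T cells and Pfkl 2.0-fold higher in macrophages. Pfkfb3, which makes the activator of that step, was 6.75-fold higher in macrophages. Ldha, lactate dehydrogenase, was not called, at 2502, 2516 and 2835 CPM in T cells and 3107, 2362 and 2674 CPM in macrophages (log2 -0.05 ± 0.18 (SE)). Hif1a, the factor that drives many of these genes, was 2.77-fold higher in macrophages.

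Surface receptors of macrophages were mostly at a few counts or none in T cells. Of 28 tested, 26 were past 2-fold in macrophages, against 26.2% of all genes, with a median log2 difference of -12.77, or -12.49 with genes at 0 in T cells set at their bound. Csf1r, the receptor for the macrophage growth factor, gave 3826, 3869.5 and 3345 CPM in macrophages and 3 counts in T cells. Adgre1, the gene of the F4/80 antigen, gave 6257, 4581 and 6465 CPM and 8 counts. Itgam (CD11b) gave 8699.7, 7559 and 11311 CPM in macrophages and at most 0.589 CPM in a T cell library. The scavenger receptors Msr1, Marco and Cd36 gave 1280.3, 1037 and 1606, 952, 1121 and 1233 and 641, 932 and 445 CPM in macrophages. The summed level of the list varied little among macrophage libraries, from 36445 to 38570 CPM, in contrast to the lysosomal genes. Siglec1 was an exception, at 689, 246 and 935 CPM. Of the TAM receptors for dying cells, Mertk was at 0 in T cells and at 171, 197 and 177 CPM in macrophages, Tyro3 was 33.0-fold higher in T cells, at 14.1, 17.4 and 16.1 CPM, and Axl was not called (adjusted p = 0.052). Axl was called as higher in macrophages without macrophage replicate 3 (adjusted p = 0.016) or T cell replicate 3 (0.045), with RLE factors (0.048) and with all 24 libraries (0.049).

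Among 7 Fc receptors, 6 were past 2-fold in macrophages, against 26.2% of all genes. Fcgr3 gave 2365, 3040.1 and 1719 CPM, the inhibitory Fcgr2b 1743, 1986 and 1841 CPM, and Fcgr4 207, 207 and 124 CPM with no count in T cells. Fcer2a (CD23), a low-affinity IgE receptor known from B cells, went against the list at 7.07, 9.62 and 7.01 CPM in T cells and 3 counts in macrophages. B cell markers stood at 20.5 to 36.7 CPM in the same T cell libraries, and their part in this value was not tested.

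Toll-like receptors, with their adaptors and kinases, were mostly higher in macrophages, with 16 of 21 tested list members past 2-fold, against 26.2% of all genes. Tlr2 gave 1909, 1584 and 1596 CPM in macrophages, Tlr8 340, 332 and 337 CPM with no count in T cells, and Tlr4, the LPS receptor, 242, 231 and 359 CPM against at most 0.757 CPM. Its helpers Cd14 and Ly96 gave 1980.2, 1359.5 and 2280.5 CPM and 34.1, 41.9 and 30.7 CPM. Tlr1 was detected in T cells as well, at 51.3, 29.4 and 24.7 CPM, and was 4.62-fold higher in macrophages. The adaptors and kinases behind the receptors differed by member. Irak4 and Irak2, kinases that act with the adaptor Myd88, were past 2-fold in macrophages, at 4.24-fold and 3.36-fold the T cell level. Irak1 was not called (log2 -0.08 ± 0.09 (SE)), Myd88 was 1.79-fold higher in macrophages, and Traf6 and Map3k7 were 1.81-fold and 1.86-fold higher in T cells. Irak3, an inhibitor that macrophages induce on LPS, was 298-fold higher in macrophages, at 487, 340 and 603 CPM.

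Inflammatory mediators were uneven among the macrophage libraries and in which members were present. Of 20 tested, 17 were past 2-fold in macrophages and none in T cells, against 26.2% and 21.2% of all genes. Il1b gave 2178, 941 and 3909.7 CPM in replicates 1 to 3, Il1a 267, 135 and 742 CPM and Il6 21.7, 5.36 and 116 CPM. The T cell libraries held at most 0.253 CPM of each. Irg1 (Acod1), which makes itaconate, gave 732, 287 and 1285 CPM, and Nos2, which makes nitric oxide, 92.3, 11.6 and 146 CPM. Arg1, which competes for the same arginine, was even, at 9953, 9489.7 and 8799 CPM. Replicate 3 was the highest and replicate 2 the lowest for Il1a, Il1b, Il6, Irg1 and Nos2. The fibroblast marker sum, 256, 157 and 388 CPM, had the same order, and its part in these values was not tested. Tnf, an early LPS response gene, was not called, at 23.4, 25.5 and 28.3 CPM in T cells and 22.1, 14.6 and 32.7 CPM in macrophages (log2 0.15 ± 0.27 (SE), adjusted p = 0.614), but was called as higher in T cells without macrophage replicate 3 (log2 0.47, adjusted p = 0.039) and with library totals (0.028). Il10 and Il12b reached at most 0.691 and 0.181 CPM in a macrophage library, while Il12a gave 85.3, 40.5 and 136 CPM.

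Of 19 chemokines tested, 16 were past 2-fold in macrophages, against 26.2% of all genes. Pf4 was even at 5224, 5643 and 5245 CPM, Ccl9 gave 1448, 1224 and 1397 CPM, and Ccl6 gave 1936, 3449 and 1220.5 CPM with no count in T cells. The neutrophil attractants Cxcl2 and Cxcl3 gave 92.0, 63.0 and 205 CPM and 794, 393 and 1307 CPM in macrophages, again highest in replicate 3, and were at 0 in all T cell libraries. Ccl2, which draws monocytes, gave 353, 185 and 466 CPM. The interferon-induced chemokines were nearly missing from macrophages: Cxcl10 reached 0.198 CPM, and Cxcl9 and Cxcl11 were at 0 in macrophages. Ccl4 was not called (adjusted p = 0.937, or 0.037 and higher in T cells without macrophage replicate 3), with 18.9, 27.1 and 32.9 CPM in T cells and 18.4, 14.1 and 44.3 CPM in macrophages, while Ccl3 was 6.54-fold higher in macrophages. Xcl1, a lymphocyte chemokine, was past 2-fold in T cells, at 4.46, 4.68 and 5.66 CPM against 1 count.

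The lysosome, where engulfed material is broken down, stood higher in macrophages in every listed gene. All 42 genes were past 2-fold in macrophages, against 26.2% of all genes, with a median log2 difference of -4.19. The smallest differences were those of Atp6v1h (log2 -1.70 ± 0.19 (SE)) and Laptm5 (log2 -1.73 ± 0.12 (SE)). These genes took between 4.81 and 9.24% of the gene counts of a macrophage library and at most 0.302% of those of a T cell library. Cathepsin D (Ctsd), an aspartic protease, gave 18077, 27322 and 11620.5 CPM in macrophages and 82.0, 87.7 and 97.4 CPM in T cells. Psap, the precursor of the saposins, gave 15316, 21836 and 8714 and 196, 177 and 185 CPM, and cathepsin B (Ctsb) 7832, 11159 and 4836 and 88.7, 103 and 114 CPM. Ctsl and Ctsk were nearly specific, with at most 5.34 and 0.338 CPM in a T cell library. The membrane protein Lamp1 was 28.9-fold higher in macrophages and the enzyme Gusb, a common housekeeping reference, 11.0-fold. T cell levels were low but measured: the proton pump subunit Atp6v1a stood at 66.5, 71.2 and 85.9 CPM there. In macrophages it gave 634, 775 and 513 CPM, while the subunit Atp6v0d2 was uneven at 205, 503 and 53.4 CPM in replicates 1 to 3. Of the macrophage libraries, replicate 2 was the highest for Ctsd, Psap, Ctsb, Ctsl, Ctsk and Lamp1, and replicate 3 the lowest.

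The other wild-type cells stood between, with lysosomal sums of 2457 ± 82.5 CPM in T cells, 4003 ± 97.9 in B cells, 13120 ± 685 in dendritic cells and 93327 ± 31074 CPM in macrophages, scaled over all 24 libraries (SD, n = 3). Of the factors that switch these genes on, Mitf and Tfec were nearly absent from T cells, Tfe3 was 4.54-fold higher in macrophages, and Tfeb 1.91-fold (log2 -0.92 ± 0.20 (SE)). Their site, the CLEAR element, was searched as TCACGTGA, a motif added after the values were seen. It occurred in 3 of 27 lysosomal promoters (11.1%) against 1.69% of tested genes and 0.779% of all windows. The matches in Ctsd and in the lysosomal channel Mcoln1 are shown, in capitals, from the same RefSeq windows as above.
Ctsd (chr7:142387908-142387937, minus strand): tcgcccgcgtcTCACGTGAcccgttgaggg
Mcoln1 (chr8:3500462-3500491, plus strand): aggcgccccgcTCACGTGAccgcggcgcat
The match begins 99 bases before the start in Ctsd and 46 bases before it in Mcoln1, which was 4.74-fold higher in macrophages.

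Genes of lipid handling gave 16 of 18 past 2-fold in macrophages, against 26.2% of all genes. Apoe gave 6608, 12619.5 and 3372 CPM and Gpnmb, a glycoprotein of lipid-laden macrophages, 7774, 11324 and 2205 CPM, against 6.14, 6.41 and 6.25 and 1.35, 3.04 and 3.21 CPM in T cells. Abca1, which exports cholesterol, gave 3298, 2894 and 4073 CPM and was 1054-fold higher. The fatty acid carrier Fabp5 gave 2012, 3668 and 563 CPM in macrophages and 51.2, 57.3 and 58.4 CPM in T cells. Vldlr was the one member higher in T cells, at 8.24, 8.63 and 11.4 against 1.496, 1.09 and 0.593 CPM. Apoe, Gpnmb and Fabp5 were highest in macrophage replicate 2, whereas Abca1 and Lrp1 were highest in replicate 3.

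Iron and oxidant handling gave 18 of 21 past 2-fold in macrophages, against 26.2% of all genes. Beside ferritin, Hmox1, which frees iron from heme, gave 3345, 3329 and 2658 CPM against 2.86, 3.04 and 3.04 CPM, and Sod2, the mitochondrial superoxide dismutase, was 32.9-fold higher (log2 -5.05 ± 0.17 (SE)). Slc7a11, the cystine importer, was 788-fold higher, and Nfe2l2, the factor that drives these genes, 11.7-fold. Tfrc, the transferrin receptor by which dividing cells import iron, was higher in T cells, at 949, 1044 and 1062 CPM against 124, 214 and 91.6 CPM (log2 2.83 ± 0.31 (SE), adjusted p = 9.60e-05). Cytosolic Sod1 was not called (adjusted p = 0.0914), but was called as higher in T cells without macrophage replicate 2 (0.021), with upper-quartile factors (0.036) or library totals (0.00087) and with all 24 libraries (0.0052).

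The phagocyte NADPH oxidase gave 5 of 7 members past 2-fold in macrophages, against 26.2% of all genes. Its membrane core Cybb gave 3531, 2376 and 4458 CPM in macrophages and 1.51, 1.89 and 4.81 CPM in T cells, whereas the partner Cyba, at 93.5, 84.8 and 101 CPM in T cells, was 15.4-fold higher in macrophages. The small GTPases Rac1 and Rac2, which serve many other processes, were 1.34-fold and 1.91-fold higher, and with library totals Rac1 turned (log2 0.26) and Rac2 was not called. Complement gave 12 of 13 past 2-fold in macrophages, against the same 26.2%. The central component C3 gave 6636, 3918 and 11251 CPM in macrophages and Cfb, of the alternative pathway, 5184, 1718 and 5084 CPM. The 3 chains of C1q ran against them across libraries, with C1qa at 1656, 2725 and 1102 CPM. Cd55, which protects cells from complement, was 3.26-fold higher in T cells at a low level, 7.49, 7.15 and 8.28 CPM.

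Antigen presentation genes were counted by class. Genes of class II presentation and costimulation were past 2-fold in macrophages for 11 of 12 tested, against 26.2% of all genes, but at modest levels. Among these, H2-Aa and H2-Eb1 differed by less in the knockout, as given below. H2-Ab1 gave 157, 80.7 and 272 CPM in macrophages and 22.0, 18.7 and 25.5 CPM in T cells. Cd74, the invariant chain, gave 219, 172 and 453 and 57.6, 52.6 and 48.6 CPM. B cell markers stood at 20.5 to 36.7 CPM in the same T cell libraries, and their part in these low class II values was not tested. Ciita, the switch of class II genes, was low and not called in this comparison, at 1.51, 1.73 and 2.87 CPM and 1.10, 1.45 and 2.17 CPM. The costimulatory ligand Cd86 was 34.3-fold and the inhibitory ligand Cd274 (PD-L1) 5.42-fold higher in macrophages. The summed class II list stood at 992 ± 296 CPM in macrophages, 176 ± 9.25 in T cells, 10813 ± 331 in B cells and 6395 ± 681 in dendritic cells, scaled over all 24 libraries.

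Of 12 class I genes, 4 were past 2-fold in T cells and 3 in macrophages, against 21.2% and 26.2% of all genes. The median log2 difference, -0.14, turned to 0.03 with upper-quartile factors and to 0.54 with library totals. The molecule itself, H2-K1 and B2m, was 2.44-fold and 4.33-fold higher in macrophages. The peptide transporter Tap1 gave 403, 461 and 496 CPM in T cells and 136, 75.5 and 122 CPM in macrophages, and the immunoproteasome subunit Psmb9 was 3.60-fold higher in T cells. Nlrc5, the factor that drives class I genes, was 6.11-fold higher in T cells (log2 2.61 ± 0.15 (SE)). Without macrophage replicate 2, the macrophage count rose from 3 to 5. Reads of near-identical class I genes may be divided between them by the counting, so H2-K1 and H2-D1 are uncertain.

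Of 33 interferon-response genes, 7 were past 2-fold in T cells, 9 in macrophages and 10 not called, so that the shares past 2-fold were near those of all genes (21.2% and 26.2%). The median was -0.38, and 0.29 with library totals. Gbp2, a GTPase known from the response to interferon gamma, gave 1433, 1856 and 1496 CPM in T cells and 78.5, 41.3 and 82.0 CPM in macrophages (log2 4.57 ± 0.31 (SE)). The related GTPases Ifi47 and Irgm1 and the factor Irf1 were 9.48-fold, 3.20-fold and 2.90-fold higher in T cells. Oas1a, an oligoadenylate synthetase that senses viral RNA, gave 148, 83.2 and 94.8 CPM in macrophages and 1.01, 0.740 and 2.36 CPM in T cells. Irf7, the factor that drives interferon genes, was past 2-fold in macrophages but uneven, at 536, 63.7 and 209 CPM. Rsad2 and Cmpk2, strongly induced by interferon, stayed at or under 9.28 and 8.38 CPM in every library, and the call of Cmpk2 as higher in macrophages was lost without macrophage replicate 1 (adjusted p = 0.065) or T cell replicate 1 or 2. T cell replicate 3 was highest in several members, as in Isg15 at 5.05, 5.34 and 20.0 CPM and Usp18 at 4.54, 6.08 and 23.98 CPM, 2 genes that were not called. Without that library both were higher in macrophages, Isg15 by log2 -1.91 (adjusted p = 0.0048) and Usp18 by log2 -1.93 (adjusted p = 0.006). Isg15 was also called so with all 24 libraries in the fit (log2 -0.94, adjusted p = 0.037).

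Integrins gave 9 of 13 past 2-fold in macrophages, against 26.2% of all genes. Beside Itgam, its partner Itgb2, shared by both cell types, was 12.2-fold higher (log2 -3.62 ± 0.18 (SE)). Itgal, the alpha chain that lymphocytes pair with Itgb2, was 1.68-fold higher in T cells, and Itgb3 was the member past 2-fold there, at 20.6, 15.4 and 20.4 CPM against 1.995, 3.00 and 1.09 CPM. Without macrophage replicate 1, Itgb7 joined it, and its main difference was log2 1.17 ± 0.22 (SE).

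Genes of the BCL2 family, which hold cell death back or promote it, differed by member. Bcl2 was 12.7-fold higher in T cells, at 22.8, 20.4 and 23.1 CPM against 1.90, 1.27 and 2.07 CPM, and the p53 target Bbc3 (PUMA) 4.70-fold. Mcl1 was 3.39-fold higher in macrophages, at 463, 509 and 394 CPM, and the near-identical Bcl2a1a, Bcl2a1b and Bcl2a1d were past 2-fold there, with reads that may be divided between them. Bcl2l1 was not called (adjusted p = 0.976), nor was Bax (adjusted p = 0.462, or 0.024 and higher in macrophages without macrophage replicate 3).

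Of 16 genes of the microRNA pathway, 4 were past 2-fold in T cells, near the 21.2% of all genes, and 2 in macrophages, where the share of all genes was 26.2%. At any size of difference, 10 were called higher in T cells and 4 in macrophages, against 39.1% and 41.6%. Without macrophage replicate 3, 8 were past 2-fold in T cells. Drosha, which cuts primary microRNAs, was 3.38-fold higher in T cells (log2 1.75 ± 0.11 (SE)) and Ago2, the slicing Argonaute, 3.02-fold. Dicer1 was 1.63-fold higher. Ago4 ran the other way, at 18.2, 15.8 and 19.3 CPM in macrophages and 0.168, 0.411 and 0.169 CPM in T cells, and the Dicer partner Prkra was 11.8-fold higher in macrophages.

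The series was built around miR-155, whose mature strand miR-155-5p is shown from RefSeq (GRCm38.p6) with its seed, bases 2 to 8, in capitals, from chr16:84714143-84714165 on the plus strand.
mmu-miR-155-5p: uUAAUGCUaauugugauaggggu
Of 30 tested genes reported as its targets, 19 were past 2-fold in macrophages and 2 in T cells, against 26.2% and 21.2% of all genes. Spi1, Csf1r, Msr1 and Cebpb, described above among the macrophage factors and receptors, are among these. Bach1, a repressor of heme oxygenase, was 6.08-fold and the phosphatase Inpp5d (SHIP1) 2.76-fold higher in macrophages. Ets1 and E2f2 were the members past 2-fold in T cells. Jarid2 was 1.65-fold higher in T cells (log2 0.71 ± 0.20 (SE)), though not called without macrophage replicate 1 (adjusted p = 0.051), and Socs1, at 29.4, 30.1 and 34.5 CPM in T cells and 62.0, 23.96 and 136 CPM in macrophages, was not called (adjusted p = 0.0649). It was called as higher in macrophages without macrophage replicate 2 (adjusted p = 0.0013), by DESeq2 (0.02) and with all 24 libraries of the study in the fit (0.0033). The level of the microRNA itself was not analysed here.

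Some genes stood at close levels in both cell types. For 91 genes the 95% interval of the log2 difference lay within ±0.3 under the main scaling. Psmd2, a proteasome subunit, gave 517, 539 and 528 CPM in T cells and 547, 504 and 524 CPM in macrophages (log2 0.01 ± 0.12 (SE)). The deubiquitinase Usp4, the kinase Csnk1a1 and the coat protein Sec13 were others, with Csnk1a1 at 155, 174 and 165 CPM and 164, 158 and 169 CPM. This closeness holds for that scaling alone, since library totals move the median by 0.67 towards T cells.

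The knockout libraries, 3 of T cells and 3 of macrophages treated in the same ways, gave a second reading of the contrast with no library in common. There, 10091 of 11433 genes were called (88.3%) and 5797 were past 2-fold (50.7%). Of the 5354 genes past 2-fold in wild type, 5283 were tested in the knockout, 5270 of them in the same direction and 13 in the opposite one. Past 2-fold in the same direction in both were 4978 genes, 93.0% of the wild-type list and 85.9% of the knockout list. A test of the difference between the 2 contrasts called 124 of 11700 genes (1.06%). This count was unstable, from 18 without knockout T cell replicate 1 to 1962 without wild-type macrophage replicate 3.

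Among the genes named here, the contrast differed most firmly for Phgdh, where T cells exceeded macrophages by log2 6.14 in wild type and 4.45 in the knockout. The difference was -1.69 ± 0.20 (SE, adjusted p = 0.0046), and it was called with each of the 12 libraries left out. For Elovl6, a fatty acid elongase, the values were 2.99 and 5.12 (adjusted p = 0.014), called in 11 of 12 such fits. Elovl6 was low in wild type, at 11.78, 11.92 and 11.15 CPM in T cells and 1.795, 1.089 and 1.481 CPM in macrophages. Other list members whose contrast differed were the class II genes H2-Aa and H2-Eb1, Tlr9 and the chemokine Ccl22. H2-Aa went from log2 -2.555 in wild type to -0.62 in the knockout (adjusted p = 0.019). H2-Eb1 went from -1.76 to 0.013 (adjusted p = 0.028). Tlr9 went from -1.84 to 1.45 (adjusted p = 0.023) and Ccl22 from 0.41 to 4.19 (adjusted p = 0.017). Fits without a library are not reported here for them.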

How the data were processed

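Total RNA was extracted with TRIzol LS, made into TruSeq libraries and read as paired 50-nt ends, per the labels' protocols. The authors deposited raw counts per gene over coding sequence, 1 file per library. Trimming with cutadapt, alignment software STAR and mouse build mm9 are listed in the submitters' processing notes. Which tool counted the reads, in what version and with which strand setting, is not given in the sources used here, and overlapping and near-identical genes may share reads. Each file listed 20673 genes. Rows that name no gene were left out: reads in no listed gene were 51.6 to 53.1% and ambiguous reads 0.231 to 0.32%. Gene counts came to between 9326662 and 9653931 per T cell library and between 12470735 and 14219823 per macrophage library.

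Counts were tested with edgeR 4.0.16 (R 4.3.3): filterByExpr, TMM factors, the robust quasi-likelihood test on the 6 libraries with group as the only term, glmTreat at 2-fold, and Benjamini-Hochberg adjustment over all tested genes, with a threshold of 0.05. TMM factors were 1.25 to 1.28 in T cells and 0.775 to 0.813 in macrophages. CPM are TMM-scaled. SE is the log2 difference over the square root of F. Folds compare the summed counts of the groups, each divided by the group's summed TMM-scaled library totals. Against a group at 0 they are lower bounds set at 3 counts over the group. Genes with 1 to 3 counts in a group are given by their counts. Levels per kilobase used coding lengths of GENCODE M21. The knockout contrast and its difference from wild type were fitted in the same way, the latter on 12 libraries. Single sums were tested by exact permutation. The code was also run on simulated counts (11250 genes). All 100 genes changed by log2 2 and all 100 changed by log2 3 were recovered, with 8 false calls. That simulation changed no other gene and gave both cell types the same spread. The real libraries differ in both respects, so it does not measure the error of the calls above.

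The gene lists, markers and the naming rule were chosen with earlier results of these data known. The rule named the 12 largest called differences in each direction at 20 CPM or more, the 10 commonest genes of each group, up to 6 members of highest CPM and up to 4 opposing members per list, and 10 genes of close level; some genes that it names are not reported here. Other list members named in the text were chosen after their values were seen. The 31 lists held 697 distinct genes, all found, of which 651 were tested. No libraries agreed within sampling noise: chi-square per gene was 3.33 to 6.33 between T cell libraries and 39.2 to 160.7 between macrophage libraries. Alternatives were RLE, upper-quartile and no composition factors, other filters, DESeq2 1.42.0, the replicate number as a block, all 24 libraries in the fit, and each library left out.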

Additional observations from a re-analysis of the deposited data

Results flagged for a closer look

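The T cell against macrophage difference itself differed between miR-155 knockout and wild type in 124 genes by edgeR's test of the interaction (adjusted p below 0.05). Of these, 5 of the genes named above are taken up here. Phgdh, the first enzyme of serine synthesis, had a difference of log2 6.14 in wild type and 4.45 in the knockout, so the change was -1.69 ± 0.20 (SE, adjusted p = 0.0046). Shmt2, the mitochondrial enzyme that draws one-carbon units from serine, changed by -0.73 ± 0.12 (SE, adjusted p = 0.018), from 4.11 to 3.38. Ctps, which makes CTP, changed by -0.89 ± 0.14 (SE, adjusted p = 0.016), from 4.61 to 3.73. These 3 nucleotide and one-carbon genes were higher in T cells in both genotypes and by less in the knockout. Elovl6, at most 1.795 CPM in a wild-type macrophage library, changed the other way by 2.12 ± 0.33 (SE, adjusted p = 0.014), from 2.99 to 5.12. The transporter Slc2a6, a macrophage transcript, changed by 1.14 ± 0.22 (SE, adjusted p = 0.029), from -4.80 to -3.66. With each of the 12 libraries left out in turn, Phgdh was called in 12 fits, Elovl6 in 11, Ctps in 9, Shmt2 in 6 and Slc2a6 in 5.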

How the results depend on the processing

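The tested genes named above, other than H2-Aa, H2-Eb1, Tlr9, Ccl22 and Bst2, were 292 in number. Of these 292, 249 kept their direction and call under all alternatives, and 273 under all but library totals. Library totals changed the sign of 11 of them towards T cells: Bax (log2 0.52), Bcl10 (0.11), Bcl2l1 (0.67), Bhlhe40 (0.52), Cdkn1b (0.57), Impdh1 (0.38), Irak1 (0.59), Ldha (0.62), Pkm (0.09), Rac1 (0.26) and Vav3 (0.48). Of these, Bcl10 and Pkm were not called with library totals (adjusted p = 0.32 and 0.61). The changes of sign follow from the scaling, which moved the median by 0.67. The split of called genes went from 4417 higher in T cells and 4708 in macrophages to 6182 and 3221, and of past 2-fold genes from 2397 and 2957 to 3939 and 2202. Upper-quartile factors gave 4878 and 4263 called, and 2723 and 2712 past 2-fold. With each library left out, between 8521 and 9721 genes were called and between 5100 and 5719 were past 2-fold. The knockout contrast called between 9960 and 10141. The count of genes whose difference changed with genotype ranged from 18 to 1962, and the cause was not tested: it was 21 and 70 without wild-type T cell replicates 2 and 3, 48, 274 and 1962 without wild-type macrophage replicates 1, 2 and 3, 18, 50 and 38 without knockout T cell replicates 1, 2 and 3, and 34 without knockout macrophage replicate 1 or 2. DESeq2 called 9748 genes, with 4973 past 2-fold. Of the lists' counts of members past 2-fold, 365 of 372 stayed within 1.5 times when a library was left out, and 479 of 496 under the other settings.

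Replicate numbers shared by the groups did not pair the libraries: the deviations of same-numbered libraries correlated at -0.051, -0.014 and -0.013, and no library correlated best with its own number. With the replicate number as a block, 8965 genes were called, 5309 were past 2-fold, the knockout contrast called 10051 and the genotype difference 96. The block moved Isg15 (log2 -1.12, adjusted p = 0.045) and Socs1 (-0.94, 0.047) to called. It moved Impdh1 (-0.29, 0.071) and Pkm (-0.58, 0.06) to not called. No other call among the 292 named genes counted above changed. At this depth, genes with few counts in both cell types, such as Il10 and Il12b, were not tested.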
